A study of Rattus norvegicus with 8 samples.

Results

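The genes described here are the rat developmental transcription factors of the Hox, Fox, Sox, Gata, Tbx, Lhx, sine oculis homeobox (such as Six4), Pax and Nkx families. They were chosen by name: a probe of the array belonged to the set if the gene name in the scanner files began with one of these family stems, and Foxm1 was left out. The rule used no measured value and took 118 genes with 146 probes, of 16417 named genes and 41012 probes on the array. The RNA came from BRL-3A, an established cell line of rat liver origin, lysed 48 h after lipofectamine transfection. The 2 groups were cells transfected with siRNA lnc19959.2, which targets a long noncoding RNA, on 4 arrays, and cells transfected with NC, on 4 arrays. All cells were of the same line and received a transfection; the labels do not spell out what the NC oligonucleotide is. The study asked how lnc19959.2 acts on triglyceride metabolism.

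These families are sequence-specific DNA-binding proteins that set the identity and position of cells in the embryo, and many keep a role in adult tissue. Hox genes lie in clusters whose order along the chromosome matches the order of their use along the body axis, and their proteins bind DNA together with Pbx and Meis cofactors. In liver, Foxa and Gata factors open and activate genes of the endoderm, FoxO factors answer to insulin through Akt, and Sox9 marks bile duct and progenitor cells.

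On every array the unit was log2 of the processed spot intensity minus the array's own 75th percentile, so that 0 is the brightness of a probe at that percentile. That percentile was an intensity of 289 to 322 on siRNA arrays and 245 to 261 on NC arrays, and 55.4% to 59.1% of spots on siRNA arrays and 57.3% to 64.1% on NC arrays carried the scanner software's mark for a signal well above background. With 4 arrays per group, precision is limited by their number. The 4 siRNA arrays shared a scan date and the 4 NC arrays shared another. Scan, any batch that goes with it and transfection therefore cannot be told apart in any difference below. The labels do not state whether each array came from a culture of its own, so the p-values rest on a spread among arrays that may be technical. No probe was named for lnc19959.2, so its knockdown was not checked. Of 11 hepatocyte markers on the array, 5 (Alb, Ttr, Tf, Serpina1 and Tat) were above background on no array, and the list's summed level relative to the 75th percentile was 0.308 to 0.399 on siRNA arrays and 0.978 to 1.31 on NC arrays. Its measured members disagreed: Apoa1, the brightest of them on NC arrays, was lower (-4.45 ± 0.20), as was Afp (-0.42 ± 0.11). Hnf4a was higher (0.83 ± 0.22) and Fgb was not called. Among 10 fibroblast and stellate markers, 7 were above background on all 8 arrays, with Lum and Pdgfra on none, and their sum was 312 to 328 on siRNA arrays and 267 to 295 on NC arrays. The measured ones disagreed too: Col3a1 (2.66 ± 0.07), Dcn (1.64 ± 0.31) and Col1a2 (0.61 ± 0.05) were higher. Pdgfrb was lower (-0.50 ± 0.11), and Col1a1, Vim and Des were not called. The sum of 6 endothelial markers, with Pecam1 above background on no array, was 4.34 to 5.91 on siRNA arrays and 2.23 to 2.97 on NC arrays. It followed the bright Kdr (1.64 ± 0.19), with Eng and Cdh5 also higher, whereas Vwf was at least 8.18-fold lower and Tek at least 2.93-fold lower in siRNA cells. The sum of 5 cholangiocyte and epithelial markers, with Cdh1 and Epcam on none, was 4.24 to 4.85 on siRNA arrays and 2.02 to 2.37 on NC arrays, with Krt7 higher and Spp1 lower. Leukocyte markers (6, Cd79a on none) summed to 5.29 to 6.37 on siRNA arrays and 6.54 to 7.40 on NC arrays, neural markers (4, Map2 on none) to 0.683 to 1.0 and 1.21 to 1.37, and skeletal muscle markers (4, Myog on none) to 10.9 to 13.8 and 12.7 to 14.7. The part of such marker shifts in the results was not tested.

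The sequences of 7 probes are given first because the results turn on their genes: the 3 probes of Gata6 moved together, those of Tbx18 and of Foxk2 did not, the Hoxa7 probe carries the name Hoxa9 on the array, and Sox12 and Nkx2-3 had wide differences. They are 60-base oligonucleotides of the array design, read from the scanner files, with the design's positions on the rn4 build, written 5′ to 3′ with no base marked. The 60 bases of Nkx2-3 and of the spliced Tbx18 probe lie across a wider genomic interval.
Gata6, brightest probe, chr18:2512492-2512551 (+ strand): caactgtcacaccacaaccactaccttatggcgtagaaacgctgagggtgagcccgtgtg
Gata6, dimmest probe, chr18:2534127-2534186 (+ strand): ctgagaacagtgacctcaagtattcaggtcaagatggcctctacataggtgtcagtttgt
Tbx18, spliced probe, chr8:92987403-92989052 (- strand): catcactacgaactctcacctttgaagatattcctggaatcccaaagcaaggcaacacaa
Foxk2, dimmer probe, chr10:110541873-110541932 (+ strand): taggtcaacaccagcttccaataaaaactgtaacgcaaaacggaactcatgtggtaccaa
Hoxa7, chr4:80517304-80517363 (- strand): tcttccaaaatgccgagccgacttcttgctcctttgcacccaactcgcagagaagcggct
Sox12, chr3:142714964-142715023 (- strand): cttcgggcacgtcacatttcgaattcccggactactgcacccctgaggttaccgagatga
Nkx2-3, chr1:247222185-247223726 (- strand): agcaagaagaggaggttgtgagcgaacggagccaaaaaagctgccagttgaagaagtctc

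Of the developmental factors that could be measured, most were called between siRNA and NC cells, and more were higher than lower in siRNA cells. A gene counted as measured if either group had its probe well above background on 3 or 4 arrays, and 56 of the 118 genes (47.5%) were, against 65.9% of all named genes. Another 46 were above background on no array and 16 on too few. A gene was called at an adjusted p under 0.05 (limma, Benjamini-Hochberg over 24853 measured probes), and with several probes the brightest stood for it. Of the 56 measured genes, 27 were called higher (48.2%), 18 were called lower (32.1%) and 11 were not called. The same comparison called 61.6% of the measured probes and 65% of 10813 measured named genes, 35.8% of the genes as higher and 29.2% as lower, so the share called lower among the factors lay near the background. The median difference was 0.25 for the 56 genes and 0.04 for all named genes on the log2 scale, siRNA minus NC. The count depended on the scaling: quantile normalization gave 32 higher and 11 lower, median scaling 35 and 13, and scaling to spike-in controls 36 and 11. Median scaling moved the median of all named genes by 0.31 and spike-in scaling by 0.53, and called 60.2% and 72.4% of them higher. Fewer cells of a type and less RNA per cell cannot be told apart in such bulk RNA.

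Relative to the 75th percentile, the differences of 2-fold or more were mostly decreases of dim probes, a split that depended on the processing. At 2-fold or more, 3 members were higher (5.36%) and 11 lower (19.6%), against 4.14% and 8.84% of all named genes. Quantile normalization gave 7 higher and 5 lower, spike-in scaling 17 higher and 7 lower, median scaling 6 higher and 8 lower, cyclic loess 5 higher and 7 lower, and the normexp background correction 1 higher and 2 lower. Where 1 group had no array with the probe above background, its fold was replaced by a lower bound. The bound set the bright group's mean against, on each array of the dim group, the lowest signal of any probe marked well above background. The probe's own signal was used where it was higher. Unmarked probes can lie above that lowest signal, as Sox6 did on an NC array, so the bound does not rest on a strict detection limit. An adjusted p given with a bound is that of the fitted difference of the signals as measured. The bound itself was not tested. With such bounds, 2 of the 56 members were higher and 9 lower by at least 2-fold. Of 10813 named genes, 402 (3.72%) and 789 (7.3%) were. Among the 9, Foxj3 and Sox9, each above background on 1 siRNA array, and Gata3, with overlapping groups, kept their fitted values. Among the 41 members above background on all 8 arrays, 24 were higher and 8 lower, with a median of 0.31, against 38.2% higher, 25.9% lower and a median of 0.07 for 9497 named genes. Among the 15 members above background on fewer arrays, 3 were higher and 10 lower, with a median of -1.30. The 1316 named genes of that kind were higher in 18.7% and lower in 53% of cases, with a median of -0.88. Of the 15 members, 7 were above background on NC arrays only and 1 on siRNA arrays only. A probe kept through 1 group alone is higher in that group largely through the filter. The direction of these dim genes is therefore no separate result. Of the 146 member probes, 7 (4.79%) were above background on siRNA arrays only and 18 (12.3%) on NC arrays only, against 3.78% and 9.11% of all probes. The values of all siRNA arrays lay above those of all NC arrays for 27 members and below them for 15, and the groups of all named genes did not overlap in 62.5% of cases, 34.6% higher and 27.8% lower. The groups overlapped for 4 called genes, namely Foxo4, Gata3, Sox4 and Sox9.

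**Figure D1:**
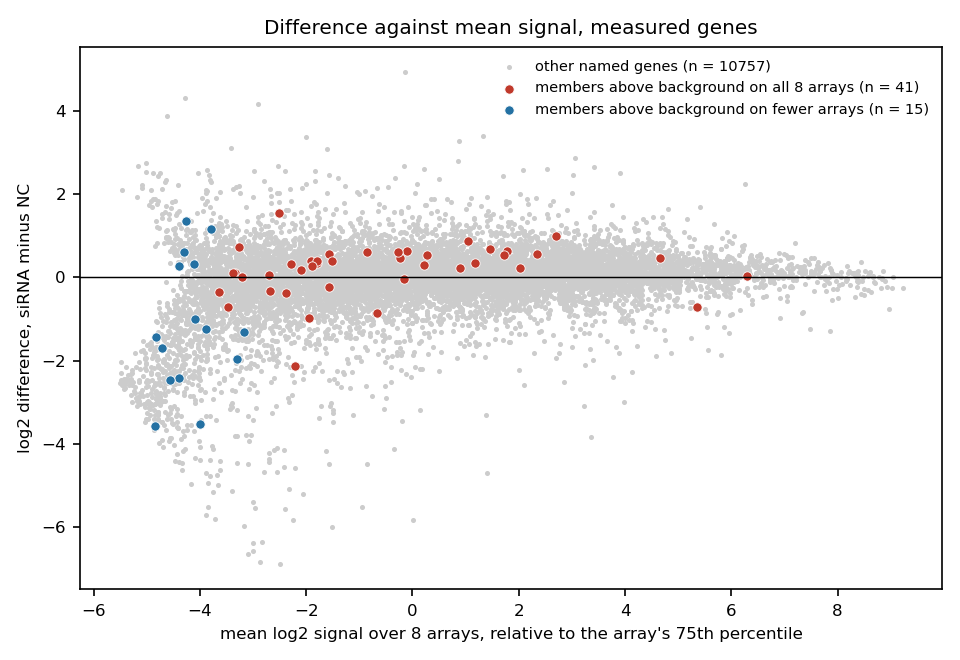
Difference between siRNA and NC arrays (log2, y axis) against the mean log2 signal over 8 arrays relative to the array's 75th percentile (x axis), for 56 developmental factors (coloured) and 10757 other measured named genes (grey); each point is a gene. The 41 members above background on all arrays (red) scatter mostly above the zero line with a median of 0.31, while the 15 dimmer ones (blue) lie mostly below it with a median of -1.30. A dim probe kept through 1 group alone is higher in that group largely through the filter.

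Among forkhead (Fox) genes, 16 of 34 were measured, and 6 were higher, 6 lower and 4 not called, with a median difference of 0.25. The liver pioneer factor gene Foxa2, whose protein opens chromatin at hepatic genes, had log2 signals of 1.89, 2.20, 2.12 and 2.14 on siRNA arrays, against 1.68, 1.30, 1.27 and 1.60 on NC arrays. Every siRNA array was above every NC array, and the difference was 0.63 ± 0.11 (SE), a 1.55-fold increase at an adjusted p of 0.00196. The other Foxa genes, Foxa1 and Foxa3, were above background on no array.

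The FoxO genes, whose proteins are held out of the nucleus by Akt, split in direction. Foxo1 gave -0.59, -0.63, -0.63 and -0.31 on siRNA arrays, against -1.21, -1.21, -1.20 and -0.98 on NC arrays. The groups did not overlap, replicate 4 was the highest of its group in both, and Foxo1 was 1.53-fold higher in siRNA cells (0.61 ± 0.09, adjusted p = 0.000756). Foxo3 gave -4.35, -4.79, -4.44 and -4.44 on siRNA arrays, where it was never above background, against -3.36, -3.23, -3.13 and -3.36 on NC arrays, where it was above background on all 4. The decrease in siRNA cells was at least 2.26-fold (adjusted p = 4.81e-05 for the fitted difference), and the groups did not overlap. Foxo4 differed by -0.23 ± 0.08 with overlapping groups (adjusted p = 0.0416). Its call held in 7 of 20 alternative settings and, of the 8 fits without an array, only in the 1 without siRNA replicate 4, and with spike-in scaling it was called higher, by 0.31.

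Of the remaining forkhead genes, Foxs1, known from pericytes and neural crest derivatives, had the widest increase among the members above background in both groups. Its log2 signals were -1.46, -1.87, -1.60 and -2.03 on siRNA arrays, against -3.20, -3.27, -3.24 and -3.43 on NC arrays. All siRNA arrays were above all NC arrays, and Foxs1 was 2.92-fold higher (1.54 ± 0.13, adjusted p = 4.14e-05). With quantile normalization Sox18 was ahead of Foxs1, at 2.12 against 1.78. Foxj3, which activates muscle genes in mouse, went the other way. It gave -4.16, -4.20, -4.39 and -4.37 on siRNA arrays, only 1 of them above background, against -2.18, -2.47, -2.45 and -2.18 on NC arrays. The groups lay far apart and Foxj3 was 3.89-fold lower on the signals as measured (-1.96 ± 0.10, adjusted p = 3.82e-06). Foxn2 gave -4.82, -6.08, -5.42 and -5.95 on siRNA arrays, none above background, against -3.78, -3.63, -4.11 and -3.91 on NC arrays, 3 of them above background. The groups did not overlap, and the decrease in siRNA cells was at least 1.52-fold (adjusted p = 0.00097 for the fitted difference). Foxc1, a mesenchymal and ocular factor (-0.87 ± 0.10), and Foxp1, a repressor known from heart and lymphocytes (-0.71 ± 0.08), were lower. Foxp1 was among the brightest members, at a mean log2 signal of 5.00 ± 0.12 on siRNA arrays and 5.71 ± 0.12 on NC arrays (SD, n = 4 each). Its call was lost with spike-in scaling and with normexp. Foxj2 (0.47 ± 0.07), Foxn3 (0.33 ± 0.06) and Foxk2 (0.22 ± 0.05) were higher. Foxe1, the thyroid forkhead factor, had the highest signal of the set, 6.31 ± 0.18 on siRNA arrays and 6.29 ± 0.09 on NC arrays (SD, n = 4 each), and was not called (difference 0.02 ± 0.10). Foxc2, Foxd4 and Foxn1 were not called either, with differences of 0.27 to 0.34, and all 3 were called higher with quantile, median and spike-in scaling. The 13 forkhead genes above background on no array included Foxl2, Foxp4 and Foxq1, and Foxd2, Foxj1, Foxp2, Foxp3 and Foxr1 were above background on too few.

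**Figure D2:**
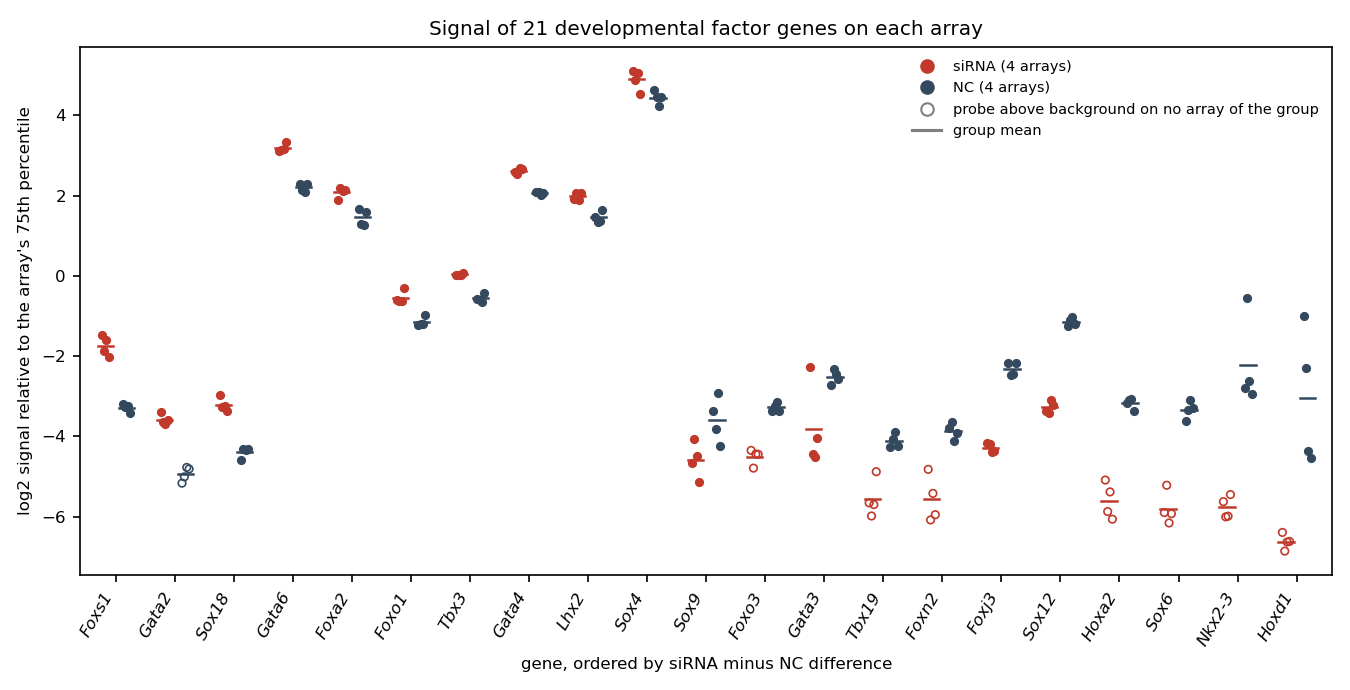
Log2 signal relative to the array's 75th percentile (y axis) of 21 named developmental factors on each array, siRNA in red left of NC in dark blue, ordered from the widest increase to the widest decrease; horizontal bars are group means and open circles mark a group whose arrays all had the probe below the background mark. The 4 Foxs1 points of siRNA cells lie between -2.03 and -1.46, above all NC points, and the siRNA points of Hoxd1, Nkx2-3, Sox6 and Hoxa2 are open and lie at -5.08 or lower.

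All called genes of the HoxC cluster were higher in siRNA cells, and the widest Hox decreases were those of Hoxa2 and Hoxd1. Of 26 Hox genes on the array, 15 were measured, and 9 were called higher, 4 lower and 2 not at all, with a median of 0.23. Their positions are those of the probes on rn4. In the HoxC cluster, whose probes span chr7:141691090-141798411, 5 of 6 measured genes were higher and none lower. Of all named genes, 35.8% were called higher, and 72.4% with spike-in scaling. Hoxc8, a thoracic gene, gave 0.63, 0.50, 0.62 and 0.45 on siRNA arrays, against 0.15, 0.09, -0.11 and -0.09 on NC arrays. All its siRNA values exceeded all NC values (0.54 ± 0.08, adjusted p = 0.000587). Hoxc9 (0.23 ± 0.06), Hoxc10 (0.38 ± 0.08), Hoxc12 (0.72 ± 0.18) and Hoxc5 (0.60 ± 0.20) were also higher, and Hoxc4, the most 3′ gene of the cluster, differed by -0.32 ± 0.16 and was not called. The call of Hoxc5, above background on 4 siRNA arrays and 1 NC array, was lost in 5 of the 8 fits without an array (siRNA replicate 1 or 4, or NC replicate 1, 3 or 4), whereas those of Hoxc8, Hoxc9, Hoxc10 and Hoxc12 held in all 8. Under each of the 5 scalings tried, 4 or 5 HoxC genes were higher and none lower. The HoxC increases did depend on background correction, as most calls of the set did: normexp left 7 members higher and 5 lower. Among the calls it ended were those of Hoxc5, Hoxc8, Hoxc9, Hoxc10 and Hoxc12. In 1 alternative each, Hoxc5 (-0.38), Hoxc10 (-0.12) and Hoxc12 (-0.31) took the opposite sign, without being called lower. A variant of normexp, chosen after seeing the data, also ended the calls of Hoxc5 and Hoxc12.

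In the HoxA cluster (chr4:80462757-80524339), 1 of 4 measured genes was higher and 2 were lower. The anterior gene Hoxa2, which patterns the hindbrain and branchial arches, gave -5.08, -5.87, -5.38 and -6.06 on siRNA arrays, none above background, against -3.17, -3.08, -3.06 and -3.36 on NC arrays, all 4 above background. The siRNA values lay well below the NC values, and Hoxa2 was at least 2.45-fold lower (adjusted p = 5.07e-05 for the fitted difference). Its neighbour Hoxa3 was lower by a log2 difference of -0.36 ± 0.08 (adjusted p = 0.00626), a call that held in 1 of 5 scalings, with the opposite sign in 3. Hoxa7, measured by the probe that the array names Hoxa9 and whose sequence stands above, gave -1.33, -1.29, -1.42 and -1.14 on siRNA arrays, against -1.86, -1.95, -1.93 and -1.63 on NC arrays. The groups did not overlap and Hoxa7 was 1.46-fold higher (0.55 ± 0.09, adjusted p = 0.00122). Hoxa9 itself was measured by the probes named Hoxa9l. The brighter one gave -3.0, -1.47, -3.21 and -3.0 on siRNA arrays, against -2.62, -2.92, -2.56 and -2.81 on NC arrays. Replicate 2 of siRNA stood above all other arrays, the groups overlapped, and Hoxa9 was not called; without that array it was called lower.

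In the HoxB cluster (chr10:84925878-85099397), Hoxb7 (0.40 ± 0.08) and Hoxb6 (0.17 ± 0.06) were higher and Hoxb9 lower (-0.72 ± 0.12). The call of Hoxb6 was lost in 5 of the 8 fits without an array (siRNA replicate 1 or 4, or NC replicate 1, 2 or 3). That of Hoxb9 was lost with spike-in scaling and with normexp. In the HoxD cluster (chr3:57285473-57379635), only its first and last genes on the array were measured. Hoxd13, a posterior limb gene, was higher (0.38 ± 0.07, adjusted p = 0.00272). Hoxd1, the most anterior member, gave -6.39, -6.86, -6.63 and -6.61 on siRNA arrays, none above background, against -1.0, -2.30, -4.37 and -4.54 on NC arrays, 3 of them above background. Its NC values spread over a wide range while the groups did not overlap. The decrease in siRNA cells was at least 2.65-fold (adjusted p = 0.00415 for the fitted difference). A separate Hoxd1 probe was above background on no array of either group, and quantile normalization and normexp each ended the call. The 11 Hox genes above background on no array included Hoxb1, Hoxb3, Hoxb8, Hoxb13, Hoxc13, Hoxd3, Hoxd4, Hoxd9, Hoxd10 and Hoxd12.

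**Figure D3:**
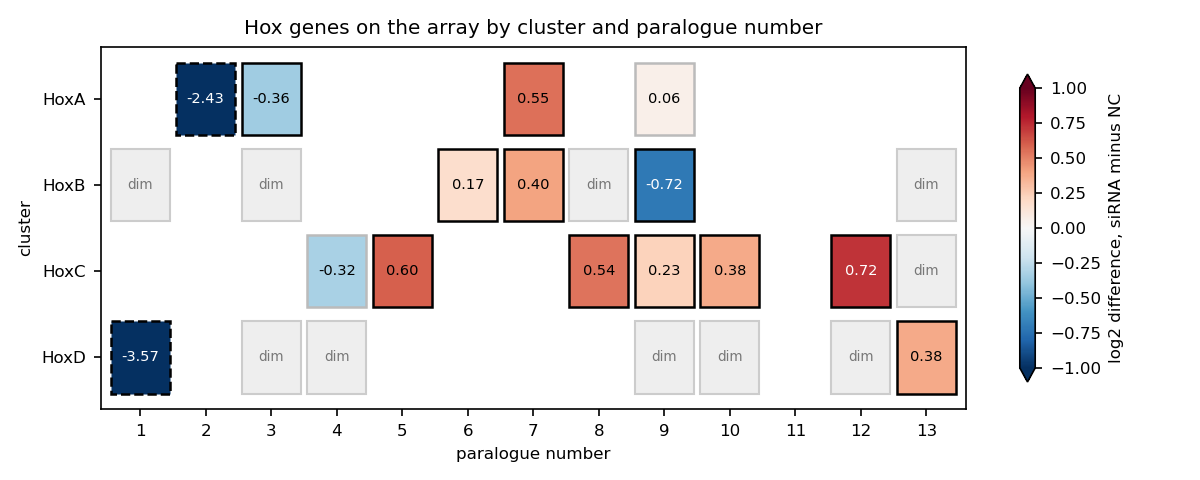
25 Hox genes of the array by cluster (rows) and paralogue number (x axis), coloured by the log2 difference between siRNA and NC arrays and labelled with it; a black outline marks a called gene, a dashed one a gene above background in NC only, and "dim" a gene that was not measured, while the colours stop at -1 and 1. The measured HoxC genes from Hoxc5 to Hoxc12 are all red, between 0.23 and 0.72, and Hoxa2 and Hoxd1 are dark blue.

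Sox genes, whose proteins bind DNA through a high-mobility-group box, divided within their subgroups. Of 14, 8 were measured, with 3 higher, 4 lower and 1 not called and a median of -0.49, which was 0.04 with spike-in scaling. The SoxC genes, expressed in progenitor cells, were all measured. Sox12 gave -3.37, -3.41, -3.10 and -3.22 on siRNA arrays, against -1.25, -1.09, -1.03 and -1.19 on NC arrays. Its groups lay far apart while all 8 arrays were above background, and it was 4.39-fold lower in siRNA cells (-2.13 ± 0.09, adjusted p = 1.36e-06), a call that held under all 20 alternatives. Sox11 gave -2.56, -2.32, -2.33 and -2.58 on siRNA arrays, against -1.61, -1.26, -1.44 and -1.51 on NC arrays. It was 1.99-fold lower without overlap (-0.99 ± 0.10, adjusted p = 9.45e-05). Sox4, the brightest of them, gave 5.10, 4.89, 5.06 and 4.52 on siRNA arrays, against 4.63, 4.46, 4.22 and 4.45 on NC arrays. Replicate 4 of siRNA lay within the NC range, and the difference was 0.45 ± 0.14 (adjusted p = 0.0251). This call was lost in 8 of 20 alternatives, 5 of them fits without an array (siRNA replicate 1, 2 or 3, or NC replicate 2 or 3, adjusted p = 0.0511 to 0.0652).

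The SoxD genes, partners of Sox9 in cartilage, moved apart. Sox5, named Sox5l1 on the array, gave 1.68, 1.78, 1.79 and 1.92 on siRNA arrays, against 1.18, 1.07, 1.04 and 1.16 on NC arrays, and was 1.60-fold higher without overlap (0.68 ± 0.06, adjusted p = 8.49e-05). Sox6 gave -5.90, -5.22, -6.15 and -5.92 on siRNA arrays, none above background, against -3.62, -3.35, -3.09 and -3.29 on NC arrays, 3 of them above background. The decrease in siRNA cells was at least 2.18-fold (adjusted p = 4.43e-05 for the fitted difference), and the groups did not overlap. A separate Sox6 probe was above background on no array. Of the SoxE genes, Sox9, the cartilage and bile duct factor, gave -4.66, -4.07, -4.49 and -5.13 on siRNA arrays, against -3.37, -3.81, -2.91 and -4.23 on NC arrays. It was above background on 1 siRNA array and 3 NC arrays, and the groups overlapped (-1.01 ± 0.32, adjusted p = 0.0246). The call was lost in 9 of 19 alternatives, among them the fits without siRNA replicate 1 or 4 or without NC replicate 1 or 3 (adjusted p = 0.0530 to 0.0596). A separate Sox9 probe was above background on no siRNA array and on 1 NC array. Sox10, a neural crest gene, was not called (0.00 ± 0.37). Of the SoxF genes, Sox18, a regulator of blood and lymph vessel growth, gave -2.97, -3.27, -3.25 and -3.36 on siRNA arrays, against -4.57, -4.30, -4.33 and -4.32 on NC arrays. All siRNA arrays were above all NC arrays, and Sox18 was 2.25-fold higher (1.17 ± 0.10, adjusted p = 4.93e-05). A separate Sox18 probe was above background on no array. Of the 5 measured endothelial markers, Kdr, Eng and Cdh5 were also higher in siRNA cells and Vwf and Tek lower. Sox17, Sox2, Sox13, Sox14 and Sox30 were above background on no array and Sox7 on 2 NC arrays only.

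Of the 5 Gata zinc-finger genes, 4 were measured, with 3 higher and 1 lower, against 35.8% and 29.2% of all named genes. Gata6 and Gata4, the endodermal pair, were bright and both higher. Gata6 gave 3.1, 3.12, 3.17 and 3.33 on siRNA arrays, against 2.28, 2.15, 2.09 and 2.29 on NC arrays. The groups were separated by more than their spread, and Gata6 was 1.97-fold higher (0.98 ± 0.07, adjusted p = 2.66e-05). Gata4 gave 2.59, 2.55, 2.68 and 2.65 on siRNA arrays, against 2.10, 2.08, 2.0 and 2.06 on NC arrays. It was 1.47-fold higher without overlap (0.56 ± 0.05, adjusted p = 5.5e-05). Both calls held under all 20 alternatives. Gata2, a factor of blood and vessel progenitors, gave -3.38, -3.64, -3.70 and -3.60 on siRNA arrays, all 4 above background, against -5.16, -5.01, -4.77 and -4.81 on NC arrays, none above background. Of the measured genes it alone was above background on siRNA arrays and on no NC array. Gata2 was at least 1.75-fold higher (adjusted p = 3.35e-05 for the fitted difference). Gata3, known from T cells and epithelia, gave -2.27, -4.43, -4.52 and -4.04 on siRNA arrays, against -2.72, -2.33, -2.44 and -2.56 on NC arrays. Replicate 1 of siRNA was above all NC arrays and the other siRNA arrays below them (-1.30 ± 0.47, adjusted p = 0.0409). The call held in 5 of 19 alternatives: without siRNA replicate 1 the difference was -1.82 (adjusted p = 0.000105), and without any other single array the adjusted p was 0.0639 to 0.0996. Of 3 measured Gata partner genes, Zfpm1, encoding the cofactor Fog1, was higher, Tal1 was lower and Zfpm2 was not called, as given below.

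T-box genes were higher in 3 of 4 measured cases, of 10 on the array, against 35.8% of all measured named genes. Tbx3, a repressor that promotes growth of liver progenitors, gave 0.01, 0.03, 0.02 and 0.07 on siRNA arrays, against -0.57, -0.61, -0.66 and -0.42 on NC arrays. The siRNA values were tightly grouped above the NC values, and Tbx3 was 1.51-fold higher (0.60 ± 0.06, adjusted p = 0.000107). Its close relative Tbx2 gave 0.35, 0.34, 0.36 and 0.37 on siRNA arrays, against 0.02, 0.04, 0.14 and 0.03 on NC arrays, and was 1.23-fold higher without overlap (0.30 ± 0.04, adjusted p = 0.000675). Tbx18, a factor of mesenchymal progenitors, gave 1.42, 1.51, 1.49 and 1.5 on siRNA arrays, against 0.61, 0.59, 0.72 and 0.52 on NC arrays. It was 1.82-fold higher by this brightest probe (0.87 ± 0.06, adjusted p = 1.24e-05). Tbx19, the pituitary factor, gave -5.65, -5.98, -5.70 and -4.88 on siRNA arrays, none above background, against -4.26, -4.06, -3.90 and -4.25 on NC arrays, 3 of them above background. The decrease in siRNA cells was at least 1.27-fold (adjusted p = 0.000905 for the fitted difference). Quantile normalization (-0.22) and normexp each ended the call. The increases of Tbx2, Tbx3 and Tbx18 held under all 5 scalings. Tbx5, Tbx6, Tbx21 and Tbx22 were above background on no array.

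The sine oculis homeobox, Lhx, Pax and Nkx families, all homeodomain or paired-domain factors, were mostly not detected: 9 of 29 genes were measured, 12 were above background on no array and 8 on too few. Six5 was 1.54-fold higher by its brighter probe (0.62 ± 0.08, adjusted p = 0.000343) and Six4 1.21-fold higher (0.28 ± 0.05, adjusted p = 0.00284). Lhx2, which restrains stellate cell activation in mouse liver, gave 1.92, 2.07, 1.89 and 2.07 on siRNA arrays, against 1.46, 1.35, 1.37 and 1.65 on NC arrays. The groups did not overlap, and Lhx2 was 1.45-fold higher (0.53 ± 0.08, adjusted p = 0.0009), under all 20 alternatives too. Lhx3, a pituitary and motor neuron factor, was not called (-0.05 ± 0.09). Pax2, a kidney factor, was lower by a log2 difference of -0.39 ± 0.11 (adjusted p = 0.0146). Its call was lost with quantile, median and spike-in scaling, with normexp and with the replicate number as a block. Pax1 was not called (0.31 ± 0.15).

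Nkx2-3, a factor of gut and spleen mesenchyme, had the widest bound of the set. It gave -5.62, -6.0, -5.99 and -5.45 on siRNA arrays, none above background, against -2.80, -0.56, -2.62 and -2.93 on NC arrays, all 4 above background. Replicate 2 of NC stood above the other NC arrays, and the groups lay far apart. The decrease of Nkx2-3 in siRNA cells was at least 4.70-fold (adjusted p = 0.000588 for the fitted difference), and the call held under all 19 alternatives. Nkx2-2 was not called (0.11 ± 0.09), and the lung and thyroid gene Nkx2-1 and the heart gene Nkx2-5 were above background on no array. The name-based set also holds Six6os1, which RefSeq lists as a gene beside Six6 and not as a transcription factor, and which was above background on 2 NC arrays only.

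**Figure D4:**
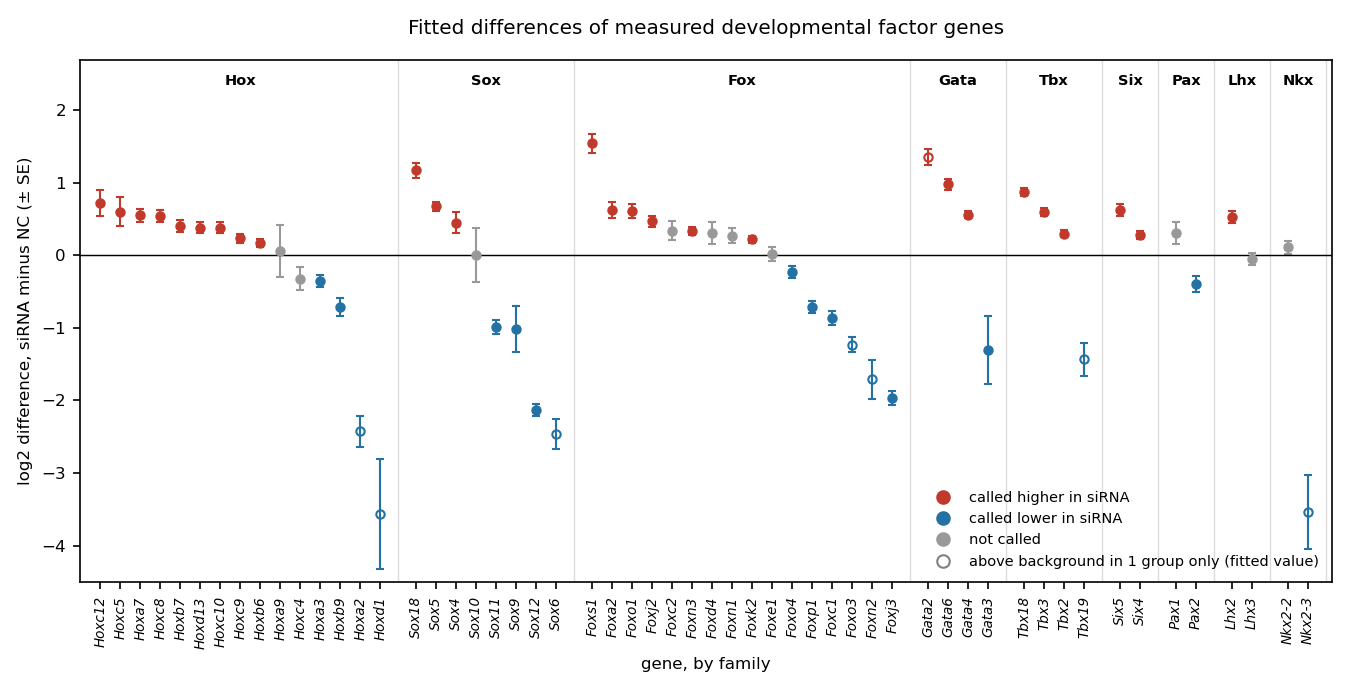
Fitted log2 difference between siRNA and NC arrays (y axis, error bars ± SE of the fit) of 55 measured developmental factors, grouped by family; red marks genes called higher, blue called lower, grey not called, and open circles genes above background in 1 group only, whose fitted value is not a bound. Increases reach 1.54 for Foxs1, and decreases reach -3.57 for Hoxd1 and -3.54 for Nkx2-3, both among the open circles.

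For 9 genes with several measured probes, the probes could be compared, each with its own sequence. The 3 Gata6 probes, the brightest of which lies 21575 bases or more from the others on rn4, all rose, with differences of 0.98, 0.99 and 1.07. Both Sox5 probes rose by a similar amount (0.68 and 0.70), although they lie far apart and the dimmer one was above background on 4 siRNA arrays and 1 NC array. The Tbx18 probes disagreed. Its brightest probe and its spliced probe rose (0.87 and 0.68). The remaining Tbx18 probe, of 15% GC, gave -6.11, -5.12, -5.85 and -6.33 on siRNA arrays, none above background, against -4.13, -3.94, -3.79 and -4.09 on NC arrays, 3 of them above background. It was thus called lower, by at least 1.39-fold, while the gene's other probes were called higher. With the mean over its probes, Tbx18 was not called. The Foxk2 probes, both above background on all 8 arrays, also disagreed. The brighter Foxk2 probe gave 2.21, 2.05, 2.15 and 2.14 on siRNA arrays, against 1.96, 1.90, 1.89 and 1.93 on NC arrays. The dimmer one gave -0.86, -0.99, -0.88 and -1.07 on siRNA arrays, against -0.60, -0.76, -0.69 and -0.72 on NC arrays. They were called in opposite directions, at 0.22 ± 0.05 (adjusted p = 0.00535) and -0.26 ± 0.07 (adjusted p = 0.00961), with no overlap of groups in either, and their sites lie 9124 bases apart. The dimmer Hoxa9 probe was lower (-0.70) where the brighter one was not called. Of 3 Sox4 probes, only the brightest was called, with 0.29 and -0.04 for the others. Of 3 Foxn3 probes, 2 rose (0.33 and 0.37) and the other gave -0.02. The dimmer Six5 probe was not called (0.51 ± 0.70, adjusted p = 0.545), with NC replicate 2 at -1.40 above all other arrays, and the call of Six5 was lost with the mean over its probes. Neither Lhx3 probe was called (-0.05 and 0.74). Separate probes of Foxc2 and Six4 were above background on no array.

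**Figure D5:**
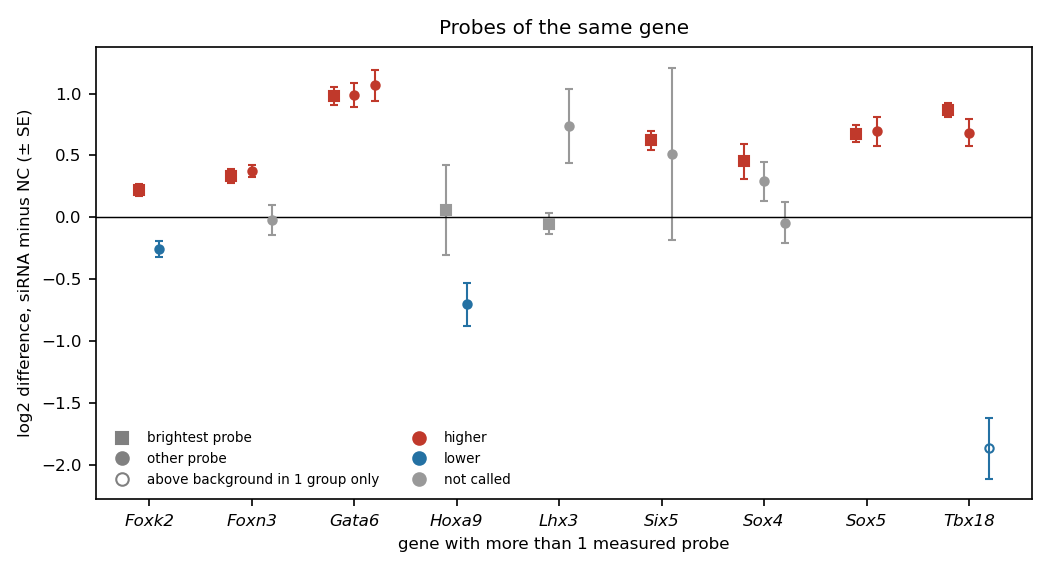
Fitted log2 difference between siRNA and NC arrays (y axis, error bars ± SE) for every measured probe of the 9 developmental factors with more than 1; squares are each gene's brightest probe, circles its others, open symbols are above background in 1 group only, and colours give the call. The Gata6 and Sox5 probes lie together above zero, while Tbx18 runs from 0.87 to -1.87 and Foxk2 from 0.22 to -0.26.

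Other genes of the same pathways were taken from lists. Of 103 such genes measured, 34 were higher (33%) and 32 lower (31.1%), near the 35.8% and 29.2% of all named genes, and with spike-in scaling 65 were higher and 17 lower. Of 7 measured Hox cofactor genes, of 9, 3 were higher and none lower, against 6 and none with spike-in scaling. The 75th percentile over probes above background on all arrays gave 2 higher and 1 lower. Among the higher, Pbx2 averaged 0.14 ± 0.08 on siRNA arrays and -0.81 ± 0.06 on NC arrays (SD, n = 4 each), and Pbx3 (0.29 ± 0.10, not called in 3 of 5 scalings) was higher too. The Meis genes measured, Meis2 and Meis3, were not called. Of 16 measured Polycomb genes, whose proteins silence developmental loci, 9 were higher and 4 lower. Spike-in scaling gave 13 higher and 1 lower, and the 75th percentile over probes above background on all arrays 6 and 4. The methyltransferase gene Ezh2 (0.70 ± 0.08), Cbx7 (0.64 ± 0.06) and Phc2 (0.39 ± 0.05) were among the higher and Phc3 (-1.31 ± 0.11) among the lower. Of 9 trithorax genes, which keep such loci active, 2 were higher (Dpy30, 0.62 ± 0.07, and Ash2l, 0.30 ± 0.06) and 2 lower, the methyltransferase gene Kmt2a (-0.80 ± 0.07) and the demethylase gene Kdm6b (-0.65 ± 0.14). With spike-in scaling the trithorax counts were 7 higher and 1 lower, and with cyclic loess normalization 2 and 4. Retinoic acid genes, which act upstream of anterior Hox genes, were 3 higher and 3 lower of 9 measured, against 4 and 1 with quantile normalization. Crabp1, a retinoic acid binding protein gene, averaged -0.68 ± 0.13 on siRNA arrays and -2.99 ± 0.19 on NC arrays (SD, n = 4 each), the receptor gene Rxra was higher (1.13 ± 0.13) and Crabp2 lower (-0.76 ± 0.09). The synthetic enzyme gene Aldh1a2, above background on 3 siRNA arrays and no NC array, was at least 1.35-fold higher.

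Among partners of single families, the Gata cofactor gene Zfpm1 averaged 2.81 ± 0.08 on siRNA arrays and 1.81 ± 0.05 on NC arrays (SD, n = 4 each). Tal1, a partner of Gata factors in blood, was lower (-1.41 ± 0.18), and Zfpm2 was not called (1.03 ± 0.58). The Lhx partner genes Ssbp3 (1.08 ± 0.12) and Ldb1 (0.41 ± 0.09) were higher and Lmo4 was not called. Of 5 Groucho corepressor genes, Tle5 (0.67 ± 0.06), Tle4 (0.20 ± 0.04) and Tle2 (0.46 ± 0.11) were higher and Tle1 lower (-0.28 ± 0.10), a call of Tle1 that changed sign in 2 of 5 scalings. Neither of the 2 measured genes of the Eya and Dach partners of sine oculis factors, Eya1 and Eya3, was called. Among 17 measured homeobox genes outside the rule, of 48, 5 were higher and 5 lower, against 8 and 3 with spike-in scaling. Dlx5, a bone and limb factor, was higher (0.81 ± 0.05), as was Tshz1 (1.02 ± 0.09), whereas Cdx2, the intestinal factor, was at least 2.27-fold lower and Dlx3 at least 1.30-fold lower in siRNA cells.

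Target genes and regulators of the forkhead factors were called in both directions. Of 16 measured FoxO target genes, of 19, 3 were higher and 8 lower. The split was 7 higher and 5 lower with spike-in scaling and 3 and 10 with quantile normalization. With the 75th percentile over probes above background on all arrays it was 2 and 12. The insulin receptor substrate gene Irs2 averaged 0.95 ± 0.04 on siRNA arrays and 1.88 ± 0.06 on NC arrays (SD, n = 4 each). Klf2 was also lower (-0.95 ± 0.06), and the stress genes Sesn3 (0.94 ± 0.07) and Sesn1 (0.80 ± 0.07) were higher. Among FoxO kinases and regulators, 2 of 8 measured were higher, Akt2 (0.79 ± 0.09) and Akt1 (0.44 ± 0.07), and 2 lower, the kinase gene Sgk1 (-1.15 ± 0.11) and the deacetylase gene Sirt1 (-0.80 ± 0.10). Spike-in scaling gave 6 higher and 1 lower, and the 75th percentile over probes above background on all arrays 2 and 4. Of 7 liver genes bound by Foxa factors, 2 were measured. Apoa1 averaged -4.93 ± 0.41 on siRNA arrays, 1 of them above background, and -0.48 ± 0.19 on NC arrays (SD, n = 4 each). Afp was lower by a log2 difference of -0.42 ± 0.11, a sign that turned in 3 of 5 scalings. Of liver factors outside the rule, 4 of 12 were measured: Cebpb (-0.66 ± 0.11) and Cebpd (-0.59 ± 0.19) were lower, calls that held in 4 and 3 of 5 scalings, and Hnf4a, above background on 4 siRNA arrays and 1 NC array, was higher (0.83 ± 0.22). Of 8 cartilage genes tied to Sox9, Col11a2 (-2.12 ± 0.17, above background on 1 siRNA array and 4 NC arrays) and Col2a1, at least 2.58-fold lower, were lower and Col9a1 was not called.

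Features that the rule did not use were set beside the calls as descriptions. The brightest probes of the 27 genes called higher had a median GC content of 45% and a median log2 signal of -0.23, and those of the 18 called lower 49.1% and -3.55. The 11 not called had 55% and -2.70. The RefSeq promoters of the GRCr8 assembly, matched by symbol for 34 of the 56 measured genes, had a median GC content of 62.8% and an observed to expected CpG ratio of 0.676, against 52.3% and 0.417 for all 27457 promoters in the table. The promoters of 13 genes called higher had a median CpG ratio of 0.776, those of 14 called lower 0.674 and those of 7 not called 0.505. For the 79 promoters matched to all members on the array, measured or not, the ratio was 0.675.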

How the data were processed

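Cy3-labelled total RNA of 8 samples was measured on 1-colour Agilent Whole Rat Genome arrays, per the labels. The deposited scanner intensities come from Feature Extraction version 12.0.3.1 of Agilent, per the file headers (the submitters' processing notes give 12.0 and name limma), and the processed intensity is background-subtracted with no scaling between arrays. The deposited mark of a spot well above background (0 or 1) has no unit. A small deposited series table gives log2 values by the authors for 86 probes, 1 of them a member probe; the sources used here do not give its normalization.

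Control spots and spots marked as outliers were left out, log2 processed intensities were taken relative to each array's 75th percentile over the 43379 non-control spots, and spots of a probe were averaged. Measured probes (24853 of 41012) were well above background on at least 3 of 4 arrays of a group. The difference, siRNA minus NC, was fitted by lmFit and eBayes of limma (version 3.58.1, R version 4.3.3), two-sided, with Benjamini-Hochberg adjustment. A lower bound set the bright group's mean against, per array of the dim group, the array's lowest signal well above background or, if higher, the signal of that probe. Of 21601 named probes, 18028 took the RefSeq GRCr8 symbol of their accession and 3573 a matching symbol or synonym; 5 member probes carry another name on the array. Members named with the value of each array were those called at 2-fold or more (up to 6 per family), those above background in 1 group only (up to 6) and 17 listed factors of liver and its mesenchyme, of which 11 were measured and 1 of these is not reported here; Sox5, Sox11, Tbx2, Tbx18, Hoxa7, Hoxa9, Hoxc8 and Foxk2 were added after their values were seen. In the other lists, up to 4 called genes were named. The members and the lists were chosen with earlier results of these data known. The fit was tested on simulated data. Replicate numbers are shared by the groups, but deviations of same-numbered arrays correlated at 0.01, 0.03, -0.03 and 0.21, so the numbers were not taken as pairs.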

Additional observations from a re-analysis of the deposited data

Results flagged for a closer look

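Among the 21 members named with values on each array, 42 groups of 4 arrays were checked for 1 array far from the others, where chance marks about 1 in 20, and 4 were marked. Foxo1 had -0.31 on siRNA replicate 4, with the nearest other siRNA array at -0.59, and -0.98 on NC replicate 4, with the nearest at -1.20. Nkx2-3 had -0.56 on NC replicate 2, with the nearest at -2.62. Sox18 had -4.57 on NC replicate 1, with the nearest at -4.33. The calls of Foxo1, Nkx2-3 and Sox18 held without each of these arrays.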

How the results depend on the processing

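Calls for the 21 named members were recomputed under up to 20 alternatives each, and 365 values kept their direction and side of the threshold, 41 lost their call and 2 changed sign. Of the 27 members called higher, 23 kept the call under all 5 scalings and 24 without each array; of the 18 called lower, 9 and 15 did. Fits without 1 array gave 24 to 27 members higher, 15 to 17 lower, and medians of 0.20 to 0.28. Quantile normalization gave 11 members lower and a median of 0.33. Median scaling gave a median of 0.56 and 54 list genes higher. Spike-in scaling gave 11 members lower, a median of 0.79, and 65 list genes higher and 17 lower. With the 75th percentile over probes above background on all arrays, the median was 0.17. Without a filter on dim probes, which adds the members at background, it was -0.052. With probes above background on all 8 arrays, 8 members and 21 list genes were lower, since fewer genes are tested. The normexp correction left 3629 probes called, 7 members higher and 5 lower, a median of -0.25, 12 list genes higher and 9 lower, and values of -0.30 for Gata2 and -0.18 for Sox18. In it, the 75th percentile of NC replicate 1 was 9.42, against 8.25 to 8.59 on the other arrays, and that array held 10 spots dimmer than their local background. Normexp without such spots, chosen after seeing the data, gave 23 members higher and 19 lower and a median of 0.065. With the replicate number as a block, 26 members were higher and 16 lower, of 14992 probes called; the median kept its value of 0.25, and Gata3, Hoxc5 and Pax2 lost their calls. The deposited series table holds 1 member probe, of Lhx3, which is not the gene's brightest, and gave no value here. Signal over background limits the dim members: a probe above background in 1 group has only a bound.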
